A study of Mus musculus with 24 samples.

Results

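A set of 9 genes of hepatic glucose production and glucose entry, out of the 54532 rows of the gene count table, was followed across the livers of fasted mice that lacked Rab30, Cpt2 or both. The genes were taken by their symbols: Pcx, Pck1, Fbp1, G6pc, Slc37a4, Slc2a2, Gckr, Pklr and Ppargc1a. Bulk RNA-seq was available for 24 livers of young adult males in 6 groups of 4, each removed after a 24 h fast, with no fed group. The floxed controls (ff;ff) carried loxP sites at both genes and no Cre, and were littermates of the double knockouts (DKO), in which albumin-driven Cre removed Rab30 and Cpt2 from hepatocytes. Rab30L-/- and Cpt2L-/- mice carried the same Cre with a single floxed gene each and came from crosses of their own, so genotype and litter cannot be told apart where they were set against the floxed controls or against DKO. Among these groups the floxed controls alone carried no Cre, so genotype and Cre cannot be told apart in any comparison against them. Rab30KO mice lacked Rab30 in every tissue and had wild-type littermates as their controls (Rab30 Ctrl). Cre under the albumin promoter acts in hepatocytes, so the other liver cells of the conditional lines kept both genes. Cpt2 encodes the carnitine palmitoyltransferase needed for mitochondrial oxidation of long-chain fatty acids, and Rab30 encodes a Golgi-associated small GTPase.

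During a fast the liver makes glucose from lactate, amino acids and glycerol, a route that consumes ATP and needs acetyl-CoA to activate its first enzyme, both of which fat oxidation supplies. Glucagon acting through cAMP and CREB, glucocorticoids, FOXO1 and the coactivator PGC-1alpha raise transcription of the pathway's key enzymes, while insulin lowers it. Glucose enters and leaves the hepatocyte through GLUT2, is trapped there by phosphorylation, and is broken down through pyruvate kinase, whose liver isoform is induced by carbohydrate feeding.

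Promoter stretches of 4 of the genes are shown first. In 3 of them lies the core of the cAMP response element, the letters ACGTCA, a known entry point of the glucagon signal to this pathway. The stretch of G6pc does not hold it and is shown for another motif, AGGTCA. In the 250 bases before the RefSeq start sites of all genes, searched on both strands, ACGTCA occurred in 6.47% of 32851 windows. The 9 members have 13 such windows, since some have several start sites, and it was found in 4 of these, which belong to Pck1, Ppargc1a and Slc37a4. For Slc37a4 these are 2 overlapping windows that hold the same bases, so that 1 site is counted in both. It lies at -61 to -56 from start site 1 and -214 to -209 from start site 2. The nuclear receptor motif AGGTCA, present in 14.0% of windows, was found in 4 of the 13, of G6pc, Slc37a4, Slc2a2 and Pklr. The forkhead motif TGTTTAC, in 3.17% of windows, was in none of the 13, the glucocorticoid receptor motif AGAACA, in 16.1%, was in 1, of Gckr, and the E-box CACGTG, in 6.02%, was in 1, of Pcx. None of the 5 motifs lay in the window of Fbp1. No matches of different motifs overlapped in the members. Sequences are from RefSeq on GRCm38.p6, read 5′ to 3′ on the gene's strand with the motif in capitals, and positions count back from the first transcribed base. The first pair ends before the first exon annotated in GENCODE M21, and the second pair lies within an alternative first exon in that annotation, where a short stretch around the motif is given.
Pck1, chr2:173152928-173153047, plus strand, with ACGTCA at -91 to -86: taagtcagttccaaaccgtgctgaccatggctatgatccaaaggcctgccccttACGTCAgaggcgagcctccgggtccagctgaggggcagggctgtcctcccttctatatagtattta
Ppargc1a, chr5:51567727-51567846, minus strand, with ACGTCA at -50 to -45: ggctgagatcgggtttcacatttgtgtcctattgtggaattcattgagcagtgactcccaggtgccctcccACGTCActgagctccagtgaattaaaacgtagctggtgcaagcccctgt
Slc37a4, chr9:44396873-44396902, plus strand, with ACGTCA on the opposite strand at -61 to -56: tgacaggcaggaTGACGTctccatcccagg
G6pc, chr11:101367650-101367679, plus strand, with AGGTCA on the opposite strand at -54 to -49: tcagggctggatTGACCTacagactgaatc
A match of these letters describes the window and neither shows that a factor binds there nor that one does not bind elsewhere.

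Libraries held between 11801027 and 24497738 counts, with a median of 14358966, so that even the members of lowest level, Ppargc1a and Pklr, rested on at least 126 counts in a library. Levels are given as CPM, counts scaled to a common library size by the trimmed mean of M-values (TMM), and differences as log2 fold changes with their standard error (SE) from edgeR's quasi-likelihood test. A gene was called at a Benjamini-Hochberg adjusted p under 0.05 over all genes tested and a change of at least 1.2-fold. The whole-gene count of Rab30 checks its label little, since 1 exon was removed: it lay between 5.39 and 17.4 CPM in Rab30KO and between 6.64 and 30.1 CPM in Rab30 Ctrl, between 10.4 and 26.6 CPM in Rab30L-/- and 25.9 and 44.6 CPM in the floxed controls, and between 101 and 231 CPM in DKO and 122 and 188 CPM in Cpt2L-/-. All Rab30L-/- livers but replicate 3 lay below every floxed control, while the DKO range enclosed that of Cpt2L-/-. The Cpt2 count, 95.3 to 167 CPM in Cpt2L-/- and 128 to 139 CPM in the floxed controls, does not show its deletion there. In DKO it was 96.1 to 120 CPM, below every floxed control and every Rab30L-/- liver (170 to 268 CPM). The liver label was borne out by hepatocyte markers, with a summed level of at least 43174 CPM in every library, while 4 kidney markers, which would mark the other organ that makes glucose, summed to at most 1.05 CPM.

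Per length, the 9 genes spanned a wide range in the floxed controls. On the FPKM scale, which divides by gene length and library size, Pck1 stood highest at 1703 ± 321 (SD, n = 4), followed by Fbp1 at 649 ± 66.5 and G6pc at 358 ± 102. Pcx reached 178 ± 57.5 and Slc37a4 157 ± 34.8, and their ranges overlapped. Gckr at 44.5 ± 1.34 lay above Slc2a2 at 31.8 ± 7.32, and Pklr at 8.63 ± 1.60 and Ppargc1a at 5.94 ± 3.54 were lowest and overlapped. All other neighbours in this order had separate ranges.

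**Figure D1:**
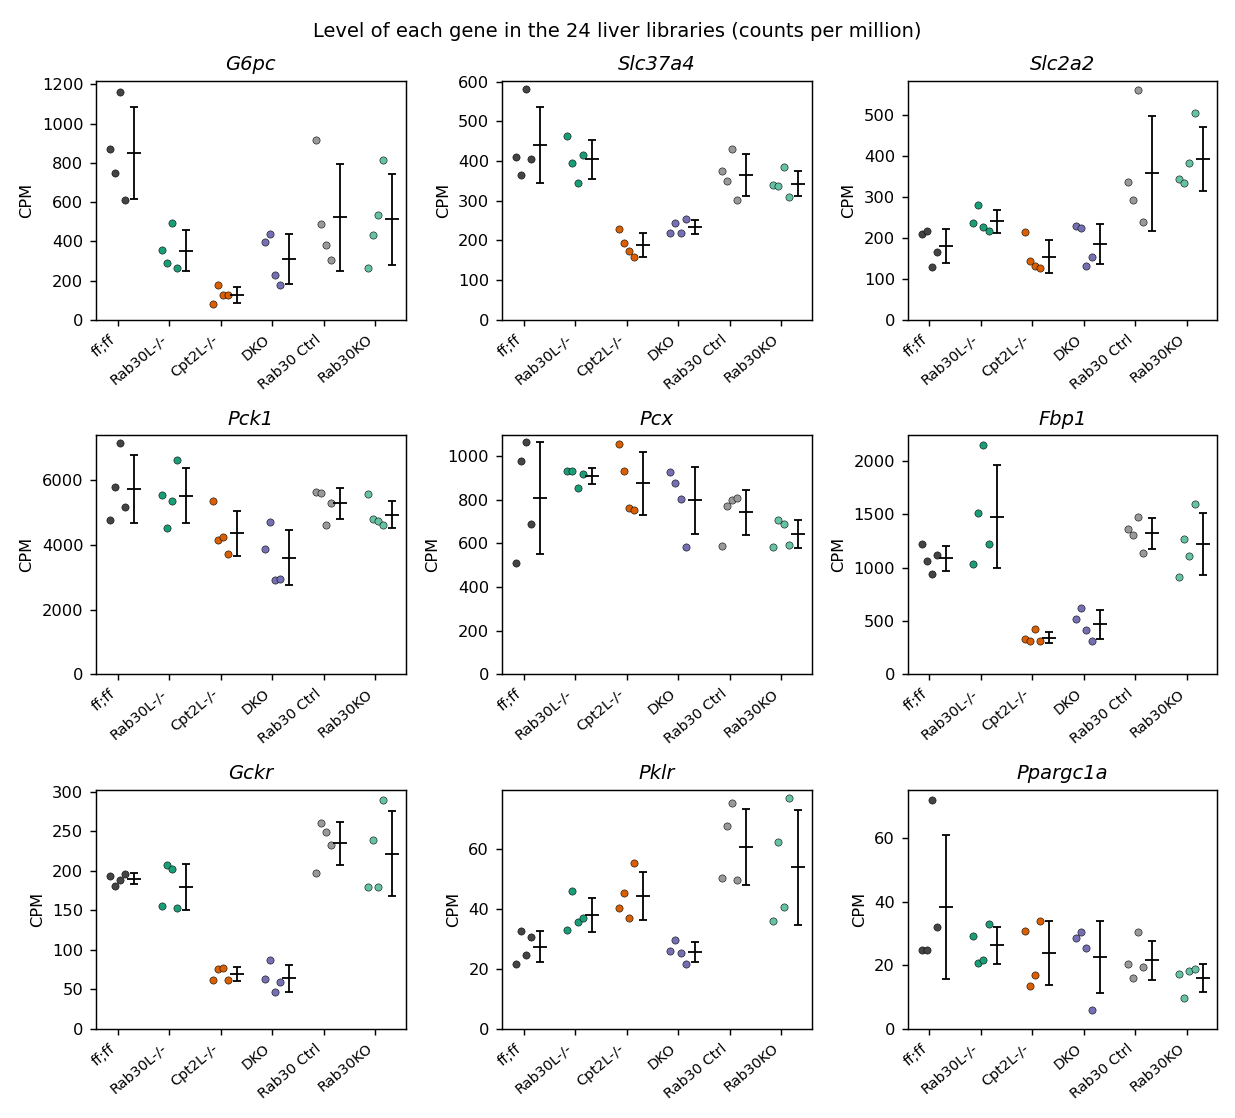
Level of each of the 9 genes in CPM (vertical axes, linear and starting at 0) in the 24 libraries by genotype. Each point is 1 liver, and the bar beside each group gives the mean and SD of its 4 livers. Fbp1, Gckr and Slc37a4 lie low in both Cpt2L-/- and DKO, G6pc is lowest in Cpt2L-/-, and the group means of Pck1 and Pcx span the least.

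In Cpt2L-/- against the floxed controls, where genotype, litter and Cre cannot be told apart, 4 of the 9 genes were called lower and 1 higher. Cpt2L-/- livers had less G6pc, Fbp1, Gckr and Slc37a4 mRNA and more Pklr mRNA. These 5 calls of 9 stand beside a background in which 23.8% of the 13270 genes tested were called, 11.9% of them lower and 11.9% higher. The median log2 fold change was -0.70 over the 9 genes and -0.00 over all genes tested. The former is the value of Ppargc1a, and without control replicate 3 the median was -0.36. In whole liver, fewer cells of a type and less RNA per cell cannot be told apart.

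Pcx and Pck1 carry out the first committed steps of gluconeogenesis. Pcx (ENSMUSG00000024892, chr19:4510472-4621752 on GRCm38) encodes pyruvate carboxylase, which makes oxaloacetate from pyruvate in mitochondria. Its level was 510, 975, 1065 and 688 CPM in the floxed controls and 1055, 932, 760 and 753 CPM in Cpt2L-/- livers. The controls spread more widely than the knockouts and the ranges overlapped, with a log2 fold change of 0.10 ± 0.23 (SE, edgeR adjusted p = 0.793). Across all 6 groups the group means of Pcx spanned 0.50 on the log2 scale, the narrowest span of the 9, and each group's range overlapped that of its neighbour in the order.

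Pck1 (ENSMUSG00000027513, chr2:173153048-173159273) encodes cytosolic phosphoenolpyruvate carboxykinase, which turns oxaloacetate into phosphoenolpyruvate and is the classical transcriptional target of fasting. The floxed controls held 4781, 5801, 7166 and 5181 CPM and the Cpt2L-/- livers 5347, 4146, 4245 and 3711 CPM. The groups overlapped through 1 Cpt2L-/- liver, and the log2 fold change of -0.41 ± 0.19 was not called (edgeR adjusted p = 0.139). DKO livers held 3864, 4703, 2924 and 2953 CPM, all below the 4 floxed controls but not all below Rab30L-/-, which held 5548, 4538, 5373 and 6618 CPM. DKO was called lower in both comparisons, by a log2 fold change of -0.68 ± 0.21 against the floxed controls (edgeR adjusted p = 0.0485) and of -0.61 ± 0.20 against Rab30L-/- (edgeR adjusted p = 0.0389). Both calls were narrow. The first gave an adjusted p of 0.0514 with DESeq2's size factors and was lost on leaving out DKO replicate 1 (0.0936), 3 (0.122) or 4 (0.124) or control replicate 2 (0.0991), 3 (0.106) or 4 (0.0730). The second was lost without DKO replicate 1 (0.0707), 3 (0.0956) or 4 (0.105) or Rab30L-/- replicate 1 (0.0643), 3 (0.0555) or 4 (0.111).

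Fbp1 (ENSMUSG00000069805, chr13:62864753-62888282) encodes liver fructose-1,6-bisphosphatase, which reverses the phosphofructokinase step. In the floxed controls it was at 1222, 1062, 943 and 1116 CPM, and in Cpt2L-/- livers at 326, 308, 423 and 314 CPM. No library of one group reached the other, and the mean in Cpt2L-/- was 0.316 of the control mean (log2 fold change -1.68 ± 0.16, edgeR adjusted p = 1.43e-05). With Rab30 absent from both groups the same step was seen, from 1036, 1507, 2145 and 1223 CPM in Rab30L-/- to 517, 623, 412 and 311 CPM in DKO (log2 fold change -1.66 ± 0.26, edgeR adjusted p = 0.00096). The Rab30L-/- and DKO livers did not overlap either. The change in Fbp1 where Cpt2 was deleted did not differ detectably between the 2 Rab30 backgrounds, with an interaction of 0.03 ± 0.31 on the log2 scale (edgeR adjusted p = 0.973).

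G6pc and Slc37a4 form the last step, at the endoplasmic reticulum. G6pc (ENSMUSG00000078650, chr11:101367561-101377903) encodes the catalytic subunit of glucose-6-phosphatase, which releases free glucose. Its level was 872, 748, 1163 and 611 CPM in the floxed controls and 79.9, 177, 126 and 124 CPM in Cpt2L-/- livers. The highest Cpt2L-/- liver lay well under the lowest control, and the group mean was 0.149 of the control mean (log2 fold change -2.76 ± 0.26, edgeR adjusted p = 1.58e-05). This was the deepest fall among the 9 genes in any of the 6 group comparisons. In DKO livers G6pc was at 395, 438, 229 and 175 CPM, again below each control (log2 fold change -1.47 ± 0.30, edgeR adjusted p = 0.00731), but these overlapped the Rab30L-/- livers at 357, 290, 495 and 263 CPM. Against Rab30L-/- the DKO value was -0.18 ± 0.31 and not called (edgeR adjusted p = 0.697).

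Slc37a4 (ENSMUSG00000032114, chr9:44396852-44402968) encodes the transporter that carries glucose-6-phosphate into the endoplasmic reticulum for G6pc. The floxed controls held 411, 366, 581 and 404 CPM and the Cpt2L-/- livers 228, 193, 174 and 157 CPM, without overlap (log2 fold change -1.24 ± 0.18, edgeR adjusted p = 0.000338). Rab30L-/- livers held 463, 396, 344 and 416 CPM and DKO livers 219, 243, 219 and 253 CPM, again without overlap (log2 fold change -0.80 ± 0.14, edgeR adjusted p = 0.00154). Thus the transporter was lower wherever Cpt2 was deleted, with an interaction of 0.45 ± 0.23 that was not called (edgeR adjusted p = 0.257).

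**Figure D2:**
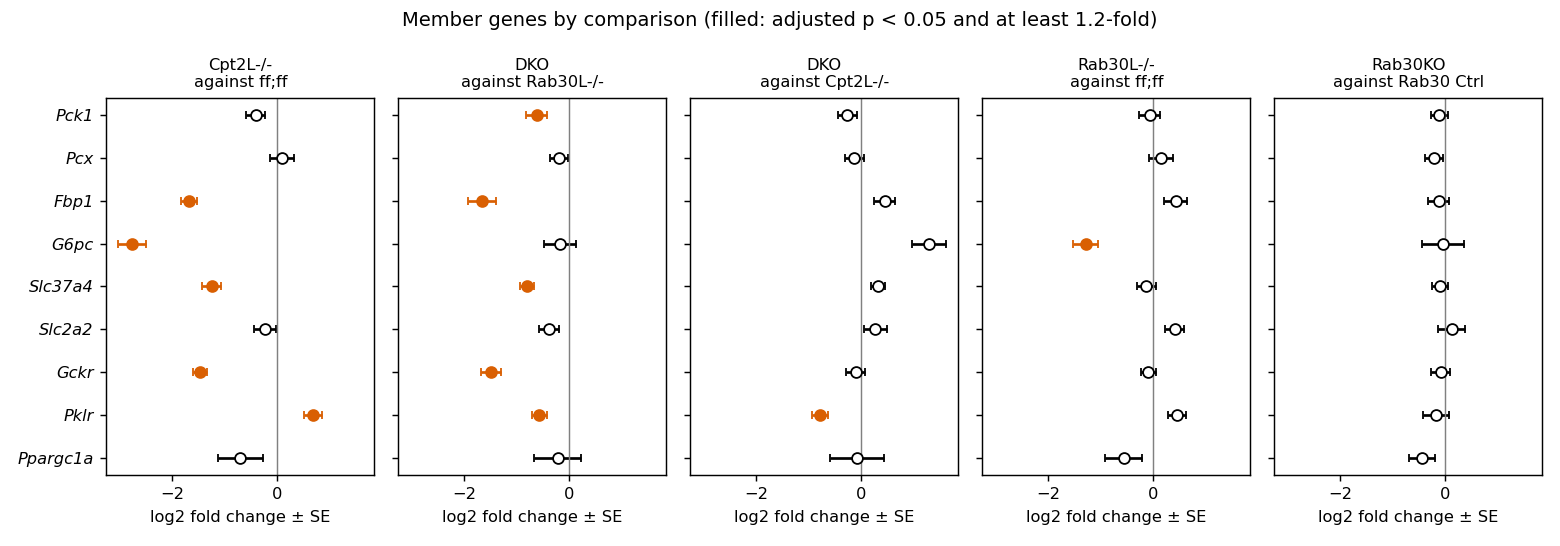
Log2 fold change with SE (horizontal axes) of the 9 genes in 5 comparisons, each fitted on 8 libraries, with filled points for genes called at an adjusted p under 0.05 and at least 1.2-fold. Fbp1, Gckr and Slc37a4 lie left of 0 in both comparisons that remove Cpt2, G6pc falls by 2.76 against the floxed controls and Pklr changes sign between the first and second panel. No gene is filled in the whole-body comparison.

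Glucose entry was marked by a fall in Gckr and little change in Slc2a2. Gckr (ENSMUSG00000059434, chr5:31297443-31327314) encodes a hepatocyte protein that restrains glucose phosphorylation during fasting. It was the least variable member in the floxed controls, at 193, 181, 189 and 196 CPM, and stood at 61.4, 75.8, 77.1 and 61.2 CPM in Cpt2L-/- livers. The groups did not overlap, and the Cpt2L-/- mean was 0.363 of the control mean, at a log2 fold change of -1.47 ± 0.13 (edgeR adjusted p = 1.02e-05). The DKO livers, at 62.8, 87.0, 45.9 and 59.6 CPM, overlapped Cpt2L-/- and lay apart from Rab30L-/- at 156, 208, 202 and 153 CPM (log2 fold change against Rab30L-/- -1.49 ± 0.19, edgeR adjusted p = 0.000241).

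Slc2a2 (ENSMUSG00000027690, chr3:28697903-28731359) encodes GLUT2, the bidirectional glucose transporter of the hepatocyte surface. It ran from 128 to 216 CPM in the floxed controls, 126 to 214 in Cpt2L-/-, 133 to 230 in DKO and 217 to 280 in Rab30L-/-. It was not called in any comparison, including Cpt2L-/- against the floxed controls at -0.23 ± 0.21 (edgeR adjusted p = 0.460). Every Rab30L-/- liver lay above every floxed control, at a log2 fold change of 0.41 ± 0.18 that did not pass over all genes (edgeR adjusted p = 0.427). In the whole-body line it ran from 335 to 505 CPM in Rab30KO and from 239 to 561 CPM in the littermate Rab30 Ctrl, which overlapped Rab30L-/-. That line was bred apart from the floxed crosses, so line and level cannot be told apart.

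Pklr (ENSMUSG00000041237, chr3:89136142-89146784) encodes pyruvate kinase of liver and red cells, which runs against gluconeogenesis by making pyruvate. It moved the other way from the enzymes above in Cpt2L-/- livers, from 21.8, 32.6, 24.6 and 30.8 CPM in the floxed controls to 40.3, 45.4, 37.0 and 55.5 CPM. The groups did not overlap, and the mean rose 1.62-fold (log2 fold change 0.69 ± 0.18, edgeR adjusted p = 0.0125), a call lost without Cpt2L-/- replicate 4, the highest liver (0.56, adjusted p = 0.0540). On the Rab30-deleted background the direction turned: Rab30L-/- livers held 32.9, 46.0, 35.8 and 37.0 CPM and DKO livers 26.0, 29.7, 25.4 and 21.5 CPM, again without overlap (log2 fold change -0.56 ± 0.14, edgeR adjusted p = 0.0119). The DKO livers therefore sat among the floxed controls, with a log2 fold change of -0.11 ± 0.17 against them (edgeR adjusted p = 0.718).

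Ppargc1a (ENSMUSG00000029167, chr5:51454250-51567726) encodes PGC-1alpha, the fasting-induced coactivator of this programme. Its level was 24.7, 24.9, 72.0 and 32.1 CPM in the floxed controls, 30.9, 13.5, 17.0 and 34.1 CPM in Cpt2L-/-, and 28.5, 30.6, 25.4 and 5.91 CPM in DKO. A single high control and a single low DKO liver set most of that spread, and the groups overlapped. The change in Cpt2L-/- was -0.70 ± 0.43 (edgeR adjusted p = 0.286) and -0.20 without control replicate 3, the high liver, and no comparison called the gene.

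DKO against Rab30L-/-, the second comparison that removes Cpt2, shares no library with Cpt2L-/- against the floxed controls. It called 5 of the 9 genes, all lower (Fbp1, Gckr, Slc37a4, Pck1 and Pklr), where 30.7% of 13292 genes were called, 15.8% lower and 14.9% higher. The median over the 9 genes was -0.56. DKO against the floxed controls, which shares libraries with both, also called 5, all lower (Gckr at -1.58 ± 0.18, G6pc, Fbp1 at -1.23 ± 0.21, Slc37a4 at -0.92 ± 0.17 and Pck1), where 16.1% of 13389 genes were called, 8.24% lower and 7.87% higher.

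Markers of hepatocytes moved with these falls. Of 7 general hepatocyte markers, 5 were called lower in Cpt2L-/- against the floxed controls, with a median log2 fold change of -0.96. The summed level of the 7 fell from 98136 to 121208 CPM in the controls to 43174 to 57133 CPM. That sum mostly follows Alb, serum albumin, which averaged 83067 CPM of a mean sum of 111843 CPM in the controls. In Cpt2L-/- Alb averaged 31608 CPM of 48915 CPM. Periportal markers, which mark the zone where gluconeogenesis is strongest, were called lower for 9 of 12 and higher for 1 in the same comparison, with a median of -1.95 (summed level 18457 to 29260 CPM in controls and 10009 to 14008 CPM in Cpt2L-/-). Pericentral markers were lower for 7 of 11 and higher for 2, with a median of -0.97 and summed levels of 13224 to 18294 CPM against 7903 to 11529 CPM. In DKO against Rab30L-/- the counts lower and higher were 6 and 0 of 7 hepatocyte, 10 and 1 of 12 periportal and 5 and 1 of 11 pericentral markers. Of 8 Kupffer cell markers, 3 were lower in Cpt2L-/- against the floxed controls (summed level 134 to 213 CPM against 167 to 319 CPM) and 7 in DKO against Rab30L-/-. None of 7 stellate markers was called by edgeR in either comparison, with 1 and 2 at an unadjusted p under 0.05 and 0 and 2 called by DESeq2. Of 6 endothelial markers edgeR called 1 lower in the first comparison and 0 in the second, where none had an unadjusted p under 0.05 and DESeq2 called 1, and 1 cholangiocyte marker was lower in each, of 4 and 3 tested. The mitochondrial share of counts was 6.10 to 7.32% in Cpt2L-/- and 4.66 to 7.86% in the floxed controls, of which replicate 1 stood apart at 7.86% against at most 5.30%, and it was 6.60 to 7.67% in DKO against 4.31 to 4.86% in Rab30L-/-. Without control replicate 1 the 5 calls in Cpt2L-/- against the floxed controls held. The part of these markers and of the mitochondrial share in the members' changes was not tested.

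Fewer of the 9 genes were called in the comparisons of Rab30 loss than in those of Cpt2 loss. In Rab30L-/- against the floxed controls 0.479% of 13367 genes were called, 0.18% lower and 0.299% higher. Genotype, litter and Cre cannot be told apart there. Of the members G6pc alone was called. Its level fell from 872, 748, 1163 and 611 CPM to 357, 290, 495 and 263 CPM, without overlap, to 0.414 of the control mean (log2 fold change -1.28 ± 0.24, edgeR adjusted p = 0.0423). The size of this fall held between -1.10 and -1.48 on leaving out each library, but the call did not: the adjusted p was 0.0714, 0.135 and 0.148 without Rab30L-/- replicate 1, 2 and 4, and 0.0873, 0.0866 and 0.0729 without control replicate 1, 2 and 3. It was also lost with at least 10 counts required in every library (0.0616) and in a fit over all 24 libraries (0.124). Pklr was higher in each Rab30L-/- liver than in each control, at 0.46 ± 0.17, and was not called (edgeR adjusted p = 0.329).

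Where Cpt2 was deleted in both groups, Pklr was the only member called in DKO against Cpt2L-/-, and it was lower in DKO. In this comparison, in which genotype and litter cannot be told apart, 2.71% of 13306 genes were called, 1.33% lower and 1.38% higher. Its 4 DKO livers, at 26.0, 29.7, 25.4 and 21.5 CPM, all lay below the 4 Cpt2L-/- livers, at 40.3, 45.4, 37.0 and 55.5 CPM (log2 fold change -0.79 ± 0.15, edgeR adjusted p = 0.0249). The call was lost in a fit over all 24 libraries (0.0625) and without DKO replicate 1 (0.0554) or Cpt2L-/- replicate 2 (0.0682) or 4 (0.0884). G6pc went the other way, from a mean of 127 ± 39.5 CPM in Cpt2L-/- to 309 ± 127 CPM in DKO (SD, n = 4 each), with overlap through the lowest DKO liver. Its log2 fold change of 1.30 ± 0.33 was not called (edgeR adjusted p = 0.0718), but it was by DESeq2's Wald test (adjusted p = 0.000891) and by edgeR without DKO replicate 4 (1.50, adjusted p = 0.0327). Fbp1 at 0.46 ± 0.20 and Slc37a4 at 0.32 ± 0.13 were also higher in DKO and were not called (edgeR adjusted p = 0.211 and 0.195).

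The difference between the 2 effects of Rab30 loss was tested as an interaction over the 16 libraries of the floxed crosses, that is, the DKO minus Cpt2L-/- difference less the Rab30L-/- minus floxed control difference. It was called for 2 of the 9 genes, where 4.06% of 14063 genes were called, 2.2% with a positive and 1.86% with a negative value. For G6pc it was 2.58 ± 0.43 on the log2 scale (edgeR adjusted p = 0.00291), since Rab30 loss went with a lower level where Cpt2 was intact and a higher one where it was deleted. For Pklr it was -1.24 ± 0.23 (edgeR adjusted p = 0.00558), with the opposite arrangement. Both calls held whichever of the 16 libraries was removed, between 2.37 and 2.80 for G6pc and between -1.34 and -1.12 for Pklr. The other 7 members were not called, with values between -0.28 and 0.49. The floxed controls and DKO were littermates while the single knockouts were not, and only the floxed controls lacked Cre. The interaction therefore cannot be told apart from litter or Cre. Hepatocyte markers were mixed in this contrast, with medians of -0.37 over the 7 general and 0.23 over the 11 pericentral markers. The summed level of the 11 pericentral markers was 15588 ± 2318 CPM in the floxed controls, 11946 ± 2999 in Rab30L-/-, 9990 ± 1584 in Cpt2L-/- and 13122 ± 1623 in DKO (SD, n = 4 each). Of these markers Slc1a2 (2.43 ± 0.35, edgeR adjusted p = 0.000703) and Axin2 (-1.52 ± 0.35, 0.0227) were called for the interaction, and of the general markers only Alb, serum albumin, was (1.04 ± 0.24, 0.0215), against the sign of that list's median. The Alb level was 83067 ± 10091 CPM in the floxed controls, 59230 ± 5547 in Rab30L-/-, 31608 ± 4543 in Cpt2L-/- and 45805 ± 5999 in DKO. In edgeR none of the 12 periportal markers was called for the interaction, none had an unadjusted p under 0.05 and DESeq2 called none. In DKO against Cpt2L-/- 2 of 11 pericentral markers were called, 1 higher and 1 lower. The 8 markers of Kupffer cells, the resident macrophages of the liver, had a median of 0.72 in Rab30L-/- against the floxed controls and -0.84 for the interaction. None of them was called by edgeR in either contrast, while 3 in each had an unadjusted p under 0.05 and DESeq2 called 0 and 2. Their summed level ran from 167 to 319 CPM in the floxed controls, 223 to 637 in Rab30L-/-, 134 to 213 in Cpt2L-/- and 132 to 163 in DKO. The part of these markers in the G6pc and Pklr results was not tested.

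**Figure D3:**
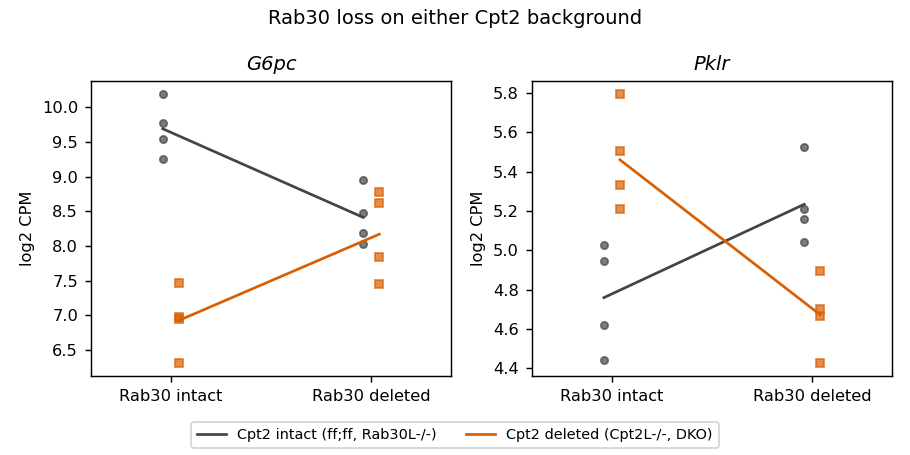
Log2 CPM (vertical axes) of G6pc and Pklr with Rab30 intact or deleted (horizontal axes). Circles and dark lines mark livers with Cpt2 intact and squares and orange lines livers with Cpt2 deleted, 4 livers in each group, and lines join the group means. The lines slope in opposite directions in each panel, falling for G6pc and rising for Pklr where Cpt2 is intact.

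Whole-body loss of Rab30 called none of the 9 genes with edgeR, where 0.022% of 13656 genes were called. None had an unadjusted p under 0.05 and DESeq2 called none. The log2 fold changes of the 9 genes lay between -0.44 (Ppargc1a) and 0.13 (Slc2a2) with SEs from 0.16 to 0.40. G6pc varied most in this line, at 263, 433, 535 and 815 CPM in Rab30KO and 916, 488, 380 and 306 CPM in Rab30 Ctrl (-0.03 ± 0.40). Pck1 was the steadiest, between 4612 and 5636 CPM in Rab30 Ctrl and 4631 and 5565 CPM in Rab30KO.

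The relatives of the members are genes for other forms of the same enzymes and carriers. Pck2, the mitochondrial phosphoenolpyruvate carboxykinase, had 0.522 ± 0.119 FPKM in the floxed controls against 1703 ± 321 FPKM for Pck1. It was higher in each Cpt2L-/- liver, at 9.23, 11.0, 14.4 and 10.9 CPM, than in each control, at 4.02, 3.13, 3.56 and 5.33 CPM (log2 fold change 1.49 ± 0.22, edgeR adjusted p = 0.000324). In DKO it ranged from 2.71 to 27.5 CPM and was not called against the controls (1.93 ± 0.58, edgeR adjusted p = 0.0519), though it was without DKO replicate 2, the lowest liver (0.000858). Fbp2, the muscle-type fructose-1,6-bisphosphatase, had 3 to 5 counts in each floxed control and 26 to 59 in each Cpt2L-/- liver (3.19 ± 0.41, edgeR adjusted p = 0.000125). It was also higher in DKO, with 16 to 74 counts, against the floxed controls (2.52 ± 0.53, edgeR adjusted p = 0.00723) and against Rab30L-/- with 1 to 13 counts (2.10 ± 0.68, edgeR adjusted p = 0.0370, and 0.0834, 0.0801, 0.0870 and 0.130 without Rab30L-/- replicate 2, 3 or 4 or DKO replicate 4).

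**Figure D4:**
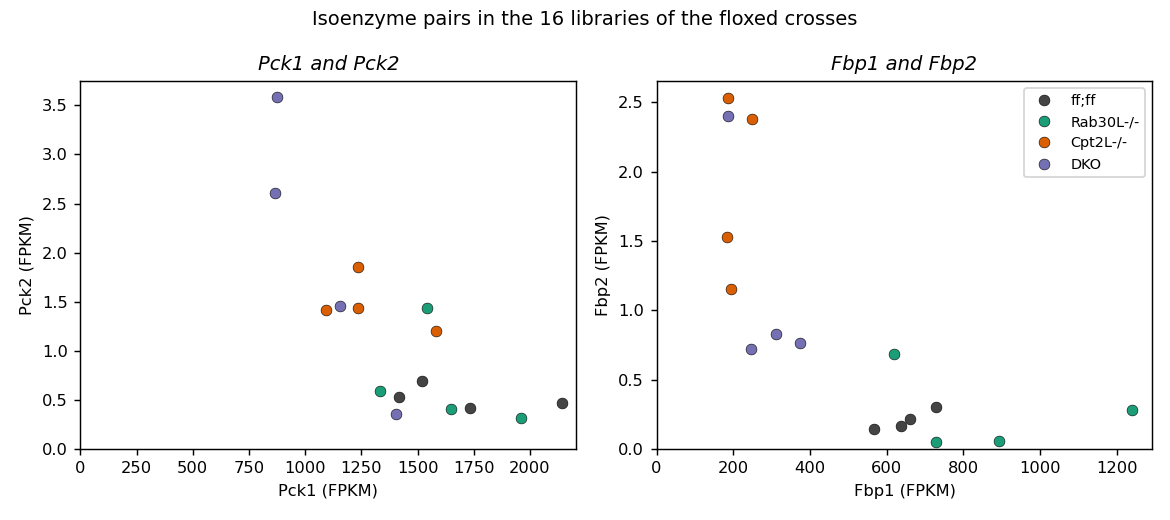
FPKM of Pck1 against Pck2 and of Fbp1 against Fbp2 in the 16 livers of the floxed crosses (each point 1 liver, axes linear and from 0). Cpt2L-/- livers lie at higher Pck2 and Fbp2 than the floxed controls, but Fbp2 stays at or below 2.53 FPKM where Fbp1 runs from 185 to 1240 FPKM.

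Pkm and Slc2a1, the pyruvate kinase and glucose transporter of most other tissues, and the ubiquitous phosphatase G6pc3 were not called in any comparison by edgeR. The DKO mean of Pkm was 0.771 of the Rab30L-/- mean. There it was called in 1 of 8 fits that left out a library (edgeR adjusted p = 0.0485). G6pc2, the islet form, was too low to be tested, at 0.28 CPM or less in every library.

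Around the members, a list of 22 enzymes and carriers that bring lactate, pyruvate, amino acids and glycerol carbon into the pathway moved in both directions. In Cpt2L-/- against the floxed controls 5 were called higher and 5 lower, 45.5% in all against 23.8% of all genes, with a median of 0.09. The largest changes were in Sds, serine dehydratase (-2.81 ± 0.33, edgeR adjusted p = 0.000121), Tat, tyrosine aminotransferase (-1.95 ± 0.27, 0.000185), Got1, cytosolic aspartate aminotransferase (-1.72 ± 0.27, 0.000632), and Pck2. Gpt, alanine aminotransferase, also fell (-0.89 ± 0.17, edgeR adjusted p = 0.00235), while Gk, glycerol kinase (1.196 ± 0.21, edgeR adjusted p = 0.00113), and Gpd2, the mitochondrial glycerol-3-phosphate dehydrogenase (1.01 ± 0.22, edgeR adjusted p = 0.00461), rose. In DKO against Rab30L-/- 4 of the 22 were called higher and 2 lower, with Gk at 1.21, Gpd2 at 1.77, Gpt at -1.23 and Sds at -2.50, 27.3% in all against 30.7% of all genes. Tat at -0.32 ± 0.38 and Got1 at -1.16 ± 0.48 were not called there (edgeR adjusted p = 0.565 and 0.101), though Got1 was in 1 of 8 fits that left out a library. Sds is also one of the periportal markers above.

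Of 29 glycolytic and substrate cycle genes, 27 were tested in Cpt2L-/- against the floxed controls, and 3 were called higher and 3 lower, 22.2% in all against 23.8% of all genes, with a median of 0.03. Fbp2 led together with Khk, ketohexokinase of fructose entry (-1.64 ± 0.17, edgeR adjusted p = 2.74e-05), and Pfkfb1, the liver enzyme that makes and removes fructose-2,6-bisphosphate, the inhibitor of Fbp1 (-1.23 ± 0.28, edgeR adjusted p = 0.00791). Aldoa, the aldolase of muscle and many other tissues, rose by 0.89 ± 0.20 (edgeR adjusted p = 0.00627). In DKO against Rab30L-/- 3 were higher and 8 lower, 40.7% against 30.7% of all genes, with Khk at -1.25 and Pfkfb1 at -0.87.

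Among 46 regulators of the pathway, 4 were called higher and 6 lower in Cpt2L-/- against the floxed controls, 21.7% in all against 23.8% of all genes, with a median of -0.25. Nr0b2, the corepressor SHP, fell most, from 8.82 to 40.3 CPM in the controls to 0.881 to 2.37 CPM (-3.94 ± 0.53, edgeR adjusted p = 0.000505). Atf3, a stress-induced repressor, rose from 0.175 to 3.49 CPM to 13.2 to 17.3 CPM (2.67 ± 0.48, 0.00225). Trib3, a pseudokinase that inhibits insulin signalling, rose by 1.85 ± 0.36 (edgeR adjusted p = 0.00388) and Pde4d, a phosphodiesterase that breaks down cAMP, by 1.80 ± 0.22 (9.33e-05). Foxo1, which activates G6pc and Pck1, fell to 31.1 to 42.9 CPM from 57.0 to 86.5 CPM (-1.02 ± 0.17, 0.000681). In DKO against Rab30L-/- 7 were higher and 13 lower, 43.5% against 30.7% of all genes, and Nr0b2 (-3.37 ± 0.78), Atf3 (4.36 ± 0.59) and Pde4d (1.85 ± 0.24) were called there too, while Trib3 at 0.75 ± 0.52 (edgeR adjusted p = 0.322) and Foxo1 at 0.22 ± 0.21 (0.47) were not. Without DKO replicate 1 the adjusted p of Nr0b2 there was 0.0509.

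**Figure D5:**
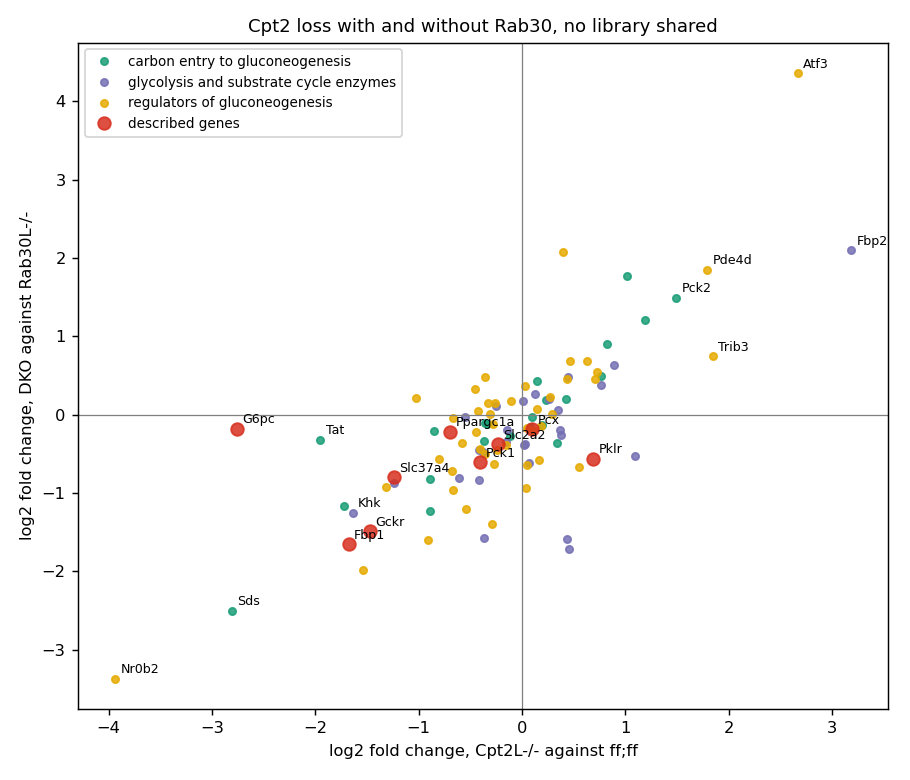
Log2 fold change in Cpt2L-/- against ff;ff (horizontal axis) and in DKO against Rab30L-/- (vertical axis), which share no library, for the 9 described genes (red) and the 3 pathway lists. Fbp1, Gckr and Slc37a4 lie in the lower left, with Sds and Nr0b2 further out, while G6pc at -2.76 and -0.18 and Pklr at 0.69 and -0.56 leave the diagonal.

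For removal of Rab30 the called shares of these lists stand beside the shares over all genes given above (2.71%, 0.479% and 4.06%). In DKO against Cpt2L-/- edgeR called Stk11, the kinase LKB1 upstream of AMPK, lower (-0.51 ± 0.11, adjusted p = 0.0356), its only call among the 22, 27 and 46 genes tested, while 3, 9 and 11 had an unadjusted p under 0.05 and DESeq2 called 1, 1 and 8. The Stk11 call held in 1 of 8 fits that left out a library, the one without DKO replicate 3, and the adjusted p otherwise lay between 0.0627 and 0.120. In Rab30L-/- against the floxed controls edgeR called none of the 22, 26 and 46 tested, with 1, 4 and 4 at an unadjusted p under 0.05 and 1, 0 and 2 called by DESeq2, and in the whole-body line none was called by either tool and none had an unadjusted p under 0.05. The interaction was called for 1 of 27 glycolytic genes, the hexokinase Hk3 (-2.01 ± 0.54, edgeR adjusted p = 0.0421), or 3.7%, and 4 of 46 regulators, or 8.7%, with none of 22 carbon entry genes (4 at an unadjusted p under 0.05 and 1 called by DESeq2). Hk3 stood low, at means of 1.78 CPM in the floxed controls, 4.54 in Rab30L-/-, 2.45 in Cpt2L-/- and 1.51 in DKO. The cell type it came from was not tested. The regulators were Foxo1 (1.24 ± 0.27, 0.0171), the glucose-induced Txnip (1.69 ± 0.35, 0.0130), the deacetylase Sirt1 (0.83 ± 0.17, 0.0106) and Foxa2 (-1.10 ± 0.30, 0.0440), named after their values were seen. Foxo1, Txnip and Sirt1 were called in all 16 fits that left out a library. Hk3 and Foxa2 were called in 3 each, with adjusted p of up to 0.0880 and 0.0828: Hk3 in those without control replicate 4 or Rab30L-/- replicate 1 or 4, and Foxa2 in those without control replicate 3 or Rab30L-/- replicate 1 or 3.

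Across the 24 libraries and 14584 genes, the genes nearest in pattern were sought for the 7 members whose group means spanned at least 1 on the log2 scale, by the root mean square difference of centred log2 CPM. The difference is given also as a share of the member's own root mean square deviation, since a gene that varies little lies near many others. Gckr was nearest to Iyd, an iodotyrosine deiodinase (0.23, 28.7% of its own), Pecr (0.26) and Pipox (0.27), and Fbp1 to Uroc1 (0.25, 29.2%), Iyd (0.27) and Sardh (0.28). Slc37a4 was nearest to Zhx3 (0.16, 33.8%), Kcnn2 (0.19) and Ahcy (0.20), and Slc2a2 to Daam1 (0.25, 42.0%), Nudcd3 (0.26) and Tmem123 (0.28). G6pc was nearest to Slc1a2, the glutamate transporter of pericentral hepatocytes (0.51, 52.6%), then Cabyr and 4732465J04Rik (0.56 each). For Pklr the nearest were Lix1l (0.34, 65.0%), Ttll13 (0.34) and Habp4 (0.35), and for Ppargc1a Ctcflos (0.50, 73.7%), Ctcfl and Pptc7 (0.51 each).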

How the data were processed

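Total RNA from whole liver was sequenced by a service laboratory. Per the labels, the authors aligned reads with HISAT2 to GRCm38 (mm10) and deposited gene counts, used here as counts, and FPKM values, scaled by the authors per gene length and library. The version of the aligner, the strand and the counting tool are not given in the sources used here. Deposited tables of normalized counts and of the authors' own fold changes and p-values were not used.

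Each comparison was fitted on its 8 libraries (the interaction on 16) with edgeR 4.0.16 in R 4.3.3 (filterByExpr, TMM, robust quasi-likelihood), after checks on simulated data. Calls needed a Benjamini-Hochberg adjusted p under 0.05 over all genes tested and 1.2-fold. Alternatives were DESeq2 1.42.0 (its size factors, and its Wald test), no filter, at least 10 counts in every library, 1 fit over all 24 libraries, no fold threshold, each library left out, and FPKM. All 9 members passed the filter in each comparison.

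Members, gene lists and tests were chosen with earlier results of these data known. Beside the members, text names relatives, up to 4 called genes per list in Cpt2L-/- against the floxed controls and 2 in DKO against Cpt2L-/- by size, the 3 nearest genes per member, and genes said to be chosen otherwise. Gk, Gpd2, Gpt, the Foxo1 value for Cpt2 loss and the markers named singly were chosen after their values were seen. Of the listed markers 1 symbol was not in the table. Where a symbol had several rows, the one with most counts was used. Titles carry numbers that no 2 groups share, so nothing pairs the libraries, and replicates were numbered in accession order, which is also the order of the numbers in the Rab30KO titles. Libraries of a group are biological replicates per the study's methods, and p-values measure only the spread between them. Promoters matched for all 9 members (13 start sites). Protein sequences were not used here, and 1 gene of the lists is not reported here.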

Additional observations from a re-analysis of the deposited data

Results flagged for a closer look

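In 5 of 54 groups of 4 libraries 1 sample lay far from the other samples, where chance would give about 2.7 at 1 group in 20. The gap from that sample to the nearest of the others, as a share of the group's whole range, was 0.840 for Fbp1 in Cpt2L-/- replicate 3, the highest of its group at 423 CPM. It was 0.848 for Pcx in Rab30 Ctrl replicate 1, the lowest at 587 CPM, and 0.840 for Pcx in Rab30L-/- replicate 3, the lowest at 855 CPM. For Ppargc1a it was 0.850 in Rab30KO replicate 2, the lowest at 9.56 CPM, and 0.843 in floxed control replicate 3, the highest at 72.0 CPM.

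The difference between Rab30 loss with Cpt2 deleted and with Cpt2 intact, tested as an interaction with edgeR, was called for 2 of the 9 genes. It was 2.58 on the log2 scale for G6pc and -1.24 for Pklr.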

How the results depend on the processing

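Outside the fits that left out a library, 309 of 315 values of the 9 genes kept direction and call, and 6 did not. These were the narrow calls of Pck1, Pklr and G6pc given above and the interaction of Fbp1, which turned to -0.0021 in a fit over all 24 libraries. For DKO against Cpt2L-/-, 360 genes were called, but 1032 by DESeq2, 705 with no filter and 114 in the fit over all 24 libraries, with 2 members by DESeq2 and 0 in the last. For Rab30L-/- against the floxed controls, 64 genes were called, but 298 by DESeq2, 240 with no filter and 25 with at least 10 counts in every library, and 0 members with at least 10 counts or over all 24 libraries. For Rab30KO the 3 calls became 10 by DESeq2, 6 with no filter, 0 with at least 10 counts and 9 over all 24 libraries, and for the interaction 571 became 1080 by DESeq2 and 374 over all 24. The cause was not tested.

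Leaving out 1 library gave 2352 to 3459 genes called in Cpt2L-/- against the floxed controls, 1485 to 2675 in DKO against the floxed controls, 3204 to 3976 in DKO against Rab30L-/-, 57 to 445 in DKO against Cpt2L-/-, 23 to 93 in Rab30L-/- against the floxed controls, 0 to 4 in Rab30KO and 300 to 679 for the interaction. Members called ran from 4 to 5 in the first 3 comparisons, 0 to 2 in DKO against Cpt2L-/-, 0 to 1 in Rab30L-/-, 0 in Rab30KO and 2 for the interaction. No called member changed sign.

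Uncalled values that changed sign ran as follows. In Cpt2L-/- against the floxed controls, Pcx ran from -0.069 to 0.26. In DKO against the floxed controls, Pcx ran from -0.20 to 0.13 and Slc2a2 from -0.10 to 0.17. In DKO against Rab30L-/-, G6pc ran from -0.39 to 0.0243 and Ppargc1a from -0.40 to 0.11. In DKO against Cpt2L-/-, Gckr ran from -0.29 to 0.0254, Pcx from -0.21 to 0.0062 and Ppargc1a from -0.26 to 0.26. In Rab30L-/-, Pck1 ran from -0.17 to 0.0604, Pcx from -0.0132 to 0.31 and Slc37a4 from -0.20 to 0.0317. In Rab30KO, Fbp1 ran from -0.28 to 0.0113, G6pc from -0.36 to 0.40, Gckr from -0.24 to 0.0193 and Slc2a2 from -0.024 to 0.43. In the interaction, Fbp1 ran from -0.15 to 0.25, Gckr from -0.19 to 0.12, Ppargc1a from -0.0082 to 0.81 and Slc2a2 from -0.26 to 0.066. Depth limits Fbp2, with under 14 counts in floxed control and Rab30L-/- libraries, and G6pc2, which was not tested.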

Other observations

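Pklr was higher in the whole-body line, at 49.8 to 75.5 CPM in Rab30 Ctrl and 35.9 to 77.2 CPM in Rab30KO against 21.5 to 55.5 CPM in the floxed crosses, with overlap. Line and level cannot be told apart.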
